A study of Mus musculus with 51 samples.

Results

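The 5hmC peaks of MC3T3-E1 cells cultured with VitC (VitC+) were set beside those of the same cells without it (VitC-). MC3T3-E1 is a mouse pre-osteoblast line from calvaria, here 1 subclone of C57BL/6 background, so no spread between animals or clones is measured. Cells of both groups were kept for 28 days with 4 mM β-glycerophosphate, which supplies phosphate for mineral, and received either 50 µg/ml VitC or none. The labels and the immunoprecipitation methods give 2 samples per group (4 of 51 samples of the series). The analysis methods speak of 3 without naming these cells. Members were chosen by sample: all 257696 peaks of the VitC+ list and all 288862 peaks of the VitC- list, 546558 of 1566815 peaks in the 8 peak lists read here. Each list was called on pooled samples, so a group has 1 value, no replicate error and no test, and every difference below is one between 2 lists. The depth of the lists is unknown, and differences in depth or pull-down cannot be told apart from differences in 5hmC. Apart from 42 VitC+ and 329 VitC- peaks on unplaced sequence, the peaks lie on chromosomes 1 to 19, X and Y, to which further values refer unless fewer are named.

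TET enzymes oxidise 5-methylcytosine, which in mammals sits mostly in CpG dinucleotides, to 5-hydroxymethylcytosine (5hmC), and VitC acts as a cofactor that keeps their iron reduced. 5hmC is known to accumulate in the bodies of transcribed genes and at enhancers, and to be low at the start sites of active genes. In hMeDIP-seq, fragments are pulled down with an antibody against 5hmC, and a peak is a stretch where more fragments pile up than the background gives. A base "covered" here is one inside a peak, so covered length describes where peaks were called and not how many cytosines carry 5hmC.

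The sequences at peak summits are shown as examples of pulled-down DNA. The VitC+ and VitC- windows were chosen by unlike rules, so they do not compare the CpG content of the lists. The first 5 belong to 5 osteoblast genes. Each is the 200 bp around the summit of the VitC+ peak with the highest pileup (fragments over the summit). Only summits within 30 kb of the transcription start site (TSS) of the gene were taken. The last 3 surround summits of VitC- only peaks inside protein-coding genes, with the highest pileup among those reported here. All are printed 5′ to 3′ on the + strand of GRCm38 (mm10), in lower case with CpG in capitals.
Runx2, VitC+, chr17:44821273-44821472: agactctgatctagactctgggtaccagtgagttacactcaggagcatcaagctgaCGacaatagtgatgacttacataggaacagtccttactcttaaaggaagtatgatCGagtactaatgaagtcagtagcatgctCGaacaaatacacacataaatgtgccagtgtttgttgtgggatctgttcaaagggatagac
Sp7, VitC+, chr15:102356510-102356709: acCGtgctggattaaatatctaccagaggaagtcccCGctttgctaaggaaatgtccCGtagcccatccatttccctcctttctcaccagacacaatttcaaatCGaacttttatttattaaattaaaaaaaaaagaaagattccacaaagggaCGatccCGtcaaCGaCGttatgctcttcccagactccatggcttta
Bglap, VitC+, chr3:88385361-88385560: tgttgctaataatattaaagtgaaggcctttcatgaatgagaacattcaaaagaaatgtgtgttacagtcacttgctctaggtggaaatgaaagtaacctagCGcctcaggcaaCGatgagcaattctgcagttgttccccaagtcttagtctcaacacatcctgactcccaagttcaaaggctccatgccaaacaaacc
Col1a1, VitC+, chr11:94956977-94957176: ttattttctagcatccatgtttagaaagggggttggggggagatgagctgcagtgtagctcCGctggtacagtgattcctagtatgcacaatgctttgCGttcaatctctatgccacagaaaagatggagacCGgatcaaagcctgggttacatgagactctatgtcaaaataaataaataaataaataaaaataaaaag
Alpl, VitC+, chr4:137813463-137813662: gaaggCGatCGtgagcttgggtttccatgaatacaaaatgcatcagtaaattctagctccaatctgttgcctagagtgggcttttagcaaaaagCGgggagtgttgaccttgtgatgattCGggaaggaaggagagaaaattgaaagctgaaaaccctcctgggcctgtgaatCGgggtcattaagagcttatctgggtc
Dock2, VitC-, chr11:34681835-34682034: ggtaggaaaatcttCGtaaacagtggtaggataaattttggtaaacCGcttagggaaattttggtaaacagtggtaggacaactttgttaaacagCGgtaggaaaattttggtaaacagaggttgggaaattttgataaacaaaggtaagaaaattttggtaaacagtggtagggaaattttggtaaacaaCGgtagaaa
D5Ertd579e, VitC-, chr5:36661046-36661245: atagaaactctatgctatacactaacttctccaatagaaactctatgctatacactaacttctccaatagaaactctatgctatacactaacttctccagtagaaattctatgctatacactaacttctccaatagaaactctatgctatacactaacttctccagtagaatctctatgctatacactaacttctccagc
D5Ertd579e, VitC-, chr5:36630514-36630713: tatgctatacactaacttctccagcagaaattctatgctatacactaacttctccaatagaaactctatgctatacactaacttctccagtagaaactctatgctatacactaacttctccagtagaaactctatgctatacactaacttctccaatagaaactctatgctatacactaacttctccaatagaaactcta

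The 5 VitC+ windows hold 2 to 8 CpG each and 21 in all. Runx2, the master transcription factor of osteoblasts, had its summit (pileup 94) 6.58 kb upstream of the TSS, in the intron of another annotated gene, and no VitC- peak overlaps it. The summit of Sp7, which acts downstream of Runx2, lies in an exon and holds 8 CpG, with a pileup of 67 against 17 in the overlapping VitC- peak. For Col1a1, the α1 chain of type I collagen, the summit is 20.9 kb from the TSS, beyond the 3′ end of the gene, with a pileup of 58 against 10. Of the VitC- windows, that in an intron of Dock2, a guanine nucleotide exchange factor of leukocytes, holds 4 CpG, and both windows in D5Ertd579e hold none and repeat the same short unit. Their pileups of 350, 336 and 325 stand on local backgrounds of 89, 130 and 158 fragments, so their folds over background are 3.90, 2.58 and 2.04.

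The VitC+ list covered more of the genome with fewer peaks, and its peaks were wider. The order in number turned with peaks of a fold of at least 5, of which VitC+ had 135964 and VitC- 124622. Peaks covered 7.24% of the chromosomes in VitC+ and 5.45% in VitC-. The median width was 534 bp in VitC+ and 419 bp in VitC-, and the 90th percentile 1515 and 872 bp. The lists differed most in their broad peaks. Peaks of at least 2 kb numbered 13724 in VitC+ and 1309 in VitC-, or 20.7% and 2.31% of the covered bases, and peaks of at least 5 kb 772 and 38. The median pileup was 23 in VitC+ and 20 in VitC- cells.

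**Figure D1:**
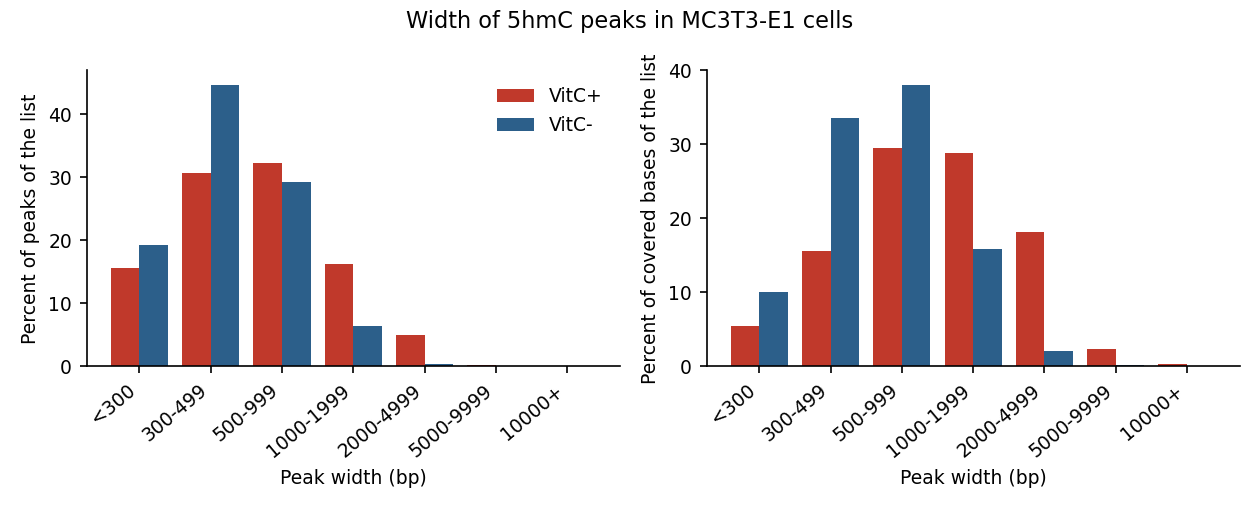
Share of peaks (left) and of covered bases (right) of each list by peak width in bp, VitC+ in red and VitC- in blue. Peaks of 1000 bp and more make up 21.5% of VitC+ peaks and 6.82% of VitC- peaks, and 49.5% and 18.1% of the covered bases.

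The 5 widest VitC+ peaks were 17962 to 28588 bp long, with 1.14 to 1.67 CpG per 100 bp, and VitC- peaks covered 3.66 to 37.4% of their length. The widest (chr17:62777247-62805834, pileup 170) lies within Efna5, an ephrin ligand, and the next (chr1:71614711-71634984, pileup 118) within Fn1, the gene of fibronectin. The others lie in Zeb2, a zinc finger transcription factor, over Scd2, a fatty acid desaturase, and 146783 bp from Klf14, a Krüppel-like factor. The 5 widest VitC- peaks were 9069 to 16345 bp long with 0.312 to 0.799 CpG per 100 bp, 4 of them on chromosome X, and none lies in a protein-coding gene. VitC+ peaks covered 94.9% of the widest, 14.9% of another and none of the other 3. Their nearest protein-coding genes are Zmat1, Rtl8b, Etd, Cdh10 and Gm52417. The peaks with the highest pileup were of another kind and stood on a high background in both lists. In VitC+ the first 5 reached pileups of 309 to 512 at folds of 1.22 to 1.98, where the local background was 249 to 333 fragments. In VitC- the first 5 reached 442 to 525 at folds of 1.47 to 4.36 over backgrounds of 114 to 326. These 10 peaks are 82.5 to 100% soft-masked repeat, and 3 of each list fall at the start of chromosome 9, with Alkbh8, a tRNA methyltransferase, as the nearest protein-coding gene. The other 4 are distal to Lrrc4c (in both lists), Gm2244 and Klf4.

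Most peaks of either list had no counterpart in the other, except that with CpG-dense peaks alone (at least the CpG density of the genome, chosen after seeing the data) 56.5% of VitC- peaks had one. A peak is called shared when it overlaps a peak of the other list by at least 1 bp, and otherwise VitC+ only or VitC- only. Shared were 92690 VitC+ peaks and 97120 VitC- peaks, 36.0% (Wilson 95% interval 35.8 to 36.2%) and 33.7% (33.5 to 33.8%), where the interval covers counting error alone. The lists had 45.4 Mb in common, 23.0% of the VitC+ and 30.6% of the VitC- covered length. Where peaks of both lists met, in 86837 merged regions, the higher pileup was in VitC+ in 62.3% and the longer covered length in 71.3%. The median ratio of pileups was 1.27 (10th to 90th percentile 0.478 to 2.92) and that of lengths 1.47. Shared VitC+ peaks were wider than VitC+ only peaks (median 809 and 446 bp) and higher (pileup 32 and 21), while for VitC- the medians were 519 and 388 bp and 23 and 20. The share of shared peaks went up with pileup, from 21.3% of VitC+ and 27.6% of VitC- peaks with pileups of 9 to 15 to 89.7% and 87.1% at 100 and more.

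VitC+ peaks lay mainly in genes, and VitC- only peaks mainly outside them. Genes (all RefSeq genes, start to end) take up 45.6% of the chromosomes. They held 69.8% of the bases covered in VitC+ and 50.2% of those in VitC-. The share was 70.8% in VitC+ only peaks, 68.8% and 63.6% in shared VitC+ and VitC- peaks, and 40.6%, under the share of the genome, in VitC- only peaks. By peak midpoints, 66.5% (Wilson 66.3 to 66.6%) of VitC+ and 48.6% (48.4 to 48.7%) of VitC- peaks were genic. Among peaks of at least 2 kb, genes held 79.5% of the VitC+ and 59% of the VitC- bases.

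When each base is given a single class, the lists differ most as a ratio in exons, and in percentage points in distal intergenic sequence and introns. Bases within 3 kb of a TSS make up 9.83% of the genome, 13.4% of the VitC+ and 9.89% of the VitC- covered bases. Exons outside these windows make up 3.21% of the genome, 5.00% of VitC+ and 2.22% of VitC-, and introns 38.0%, 55.7% and 42.3%. Distal intergenic sequence, more than 3 kb from every gene on the downstream side and from every TSS, makes up 46.6% of the genome, 23.0% of VitC+ and 43.1% of VitC-. VitC- only peaks held 1.32% exon and 52.6% distal bases, against 5.86% and 21.1% in VitC+ only peaks. In absolute terms, peaks covered 11.6% of exonic, 10.9% of intronic and 3.68% of distal bases in VitC+, and 3.87%, 6.25% and 5.18% in VitC- cells.

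**Figure D2:**
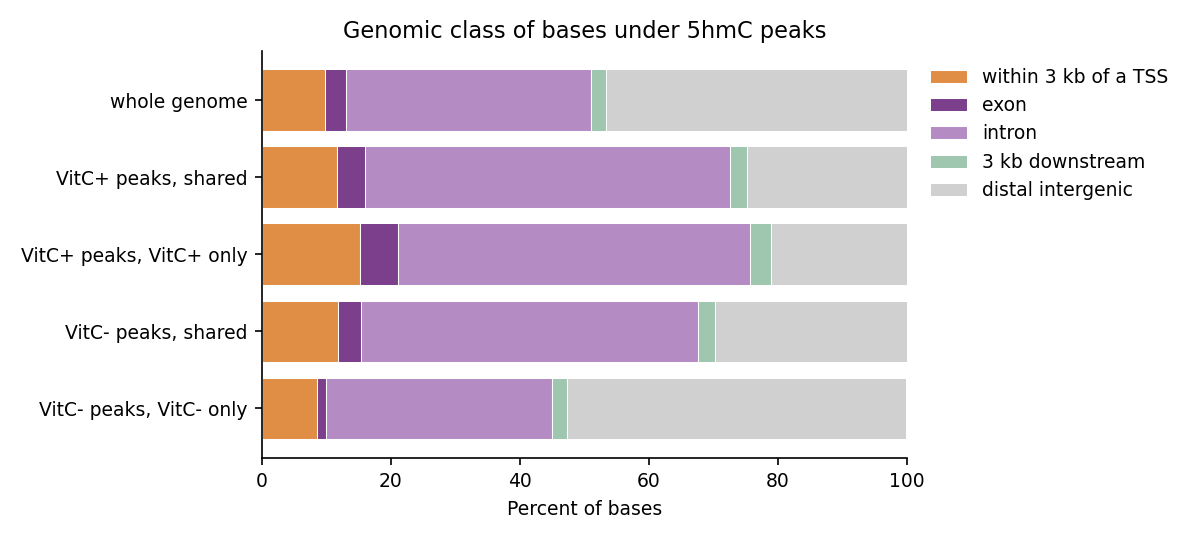
Percent of bases in each genomic class for the whole genome and for shared and list-only peaks of each list. Distal intergenic bases make up 21.1% of VitC+ only peaks and 52.6% of VitC- only peaks, against 46.6% of the genome.

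The same contrast is seen over windows of 1 Mb. Of 2397 autosomal windows with a peak, VitC+ peaks covered at most 1% in 670 (28.0%), of which 199 held no VitC+ peak, whereas VitC- peaks covered at most 1% in 2 windows. In the 670 windows, with a median genic share of 24.8%, the median VitC- coverage was 4.21%. Among the gene-poorest quintile of windows the median coverage was 0.0923% in VitC+ and 4.68% in VitC-, and among the gene-richest 10.5% and 5.84%. Spearman's rho between coverage and genic share over the windows was 0.45 in VitC+ and 0.21 in VitC-, and 0.73 between the lists; neighbouring windows are not independent and share the same libraries.

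Along protein-coding genes, VitC+ coverage was high on both sides of a dip at the TSS and declined along the gene, and VitC- coverage varied less. In 13918 genes of at least 10 kb, cut into 20 parts, mean VitC+ coverage was 12.1% in the part next to the TSS, 16.9% in the second part, and went down to 8.84% near the 3′ end. VitC- coverage lay between 6.50% in the third part and 3.28% in the last. Downstream of the gene end, VitC+ coverage came back to 13.2% at 2 to 4 kb. Around the TSS of all protein-coding genes, VitC+ coverage was 18.2% at 600 to 700 bp upstream, 4.44% at 200 to 300 bp downstream and 12.5% at 900 to 1000 bp downstream. The VitC- values at these distances were 5.84%, 2.68% and 4.77%. In bins of 2500 bp, VitC+ peaks per gene stood at 0.448 just upstream of the TSS and 0.283 in the next bin upstream, and VitC- peaks at 0.271 and 0.285.

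**Figure D3:**
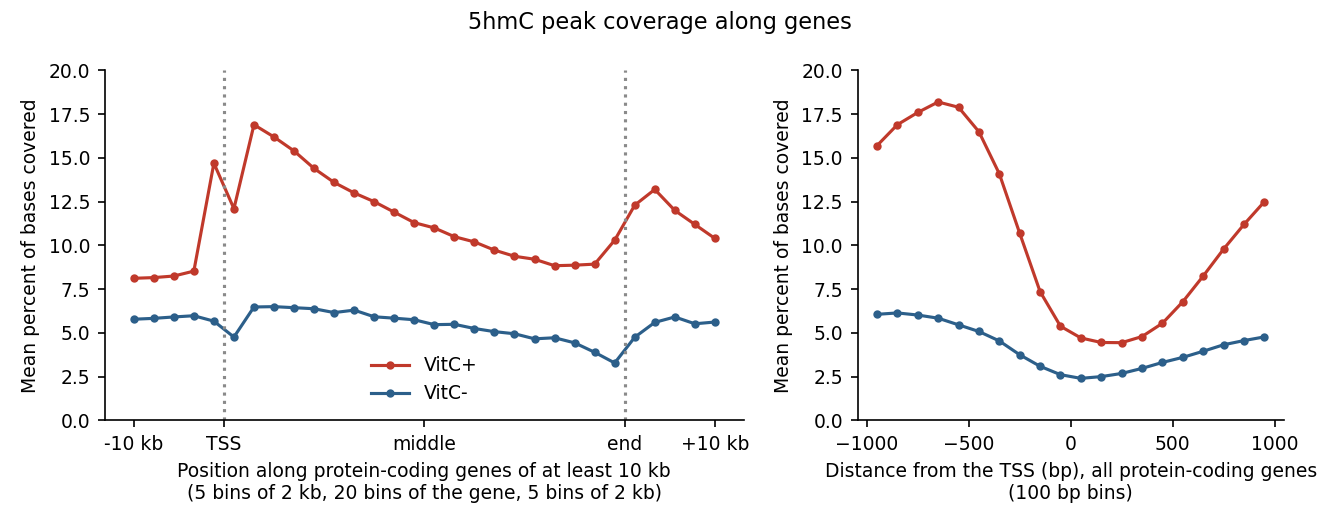
Mean percent of bases covered by peaks (y axes, 0 to 20%) along protein-coding genes of at least 10 kb (left, gene scaled to 20 bins with 10 kb on each side) and within 1 kb of the TSS of all protein-coding genes (right, 100 bp bins). Lines join bin means. VitC+ (red) peaks at 16.9% in the second bin of the gene and drops to 4.44% just past the TSS, while VitC- (blue) stays at or under 6.50%.

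The lists also differed in sequence. The genome holds 0.826 CpG per 100 bp and is 36.4% soft-masked repeat. VitC+ only peaks held 1.43 CpG per 100 bp, shared VitC+ peaks 1.26, shared VitC- peaks 1.12 and VitC- only peaks 0.565, fewer than the genome. The GC share was 43.7 to 44.8% in all 4 sets (genome 41.7%), a narrower range than that of CpG. No CpG at all was found in 35932 VitC- only peaks (18.8%) and in 46 VitC+ only peaks (0.0279%), and the share was 1.03% in shared peaks of either list. Repeats made up 43.7% of VitC- only bases and 19.4 to 22.3% of the bases of the other 3 sets. What the antibody bound in peaks without CpG was not tested.

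Short tandem repeats at the summit were searched as 6 copies of CA or GA, 4 copies of GAA or GGA, or a run of 12 A, each on both strands, within 200 bp. At least 1 of these was found in 6.77% of all such windows of the genome, 5.15% of VitC+ only, 5.21% of shared VitC+, 8.45% of shared VitC- and 13.2% of VitC- only peaks. GA repeats were in 1.37% of genome windows, 0.525% of VitC+ only and 4.94% of VitC- only peaks, and GGA repeats in 0.277%, 0.0855% and 1.77%. CA repeats stood at 3.03%, 1.72% and 5.37%. Runs of A went the other way, with 2.37% of genome windows, 2.94% of VitC+ only and 2.07% of VitC- only peaks. In VitC- the share with any such repeat was 18.1% at pileups of 9 to 15 and 3.28% at 100 and more, and the share without CpG 17.4% and 3.20%. What part repeats have in the VitC- only peaks was not tested. With peaks of at least the CpG density of the genome alone (an alternative chosen after seeing the data), 211171 VitC+ peaks over 169 Mb stood against 107353 VitC- peaks over 60.1 Mb. The ratio of covered lengths was then 2.80 instead of 1.33, and the list with more peaks was VitC+.

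**Figure D4:**
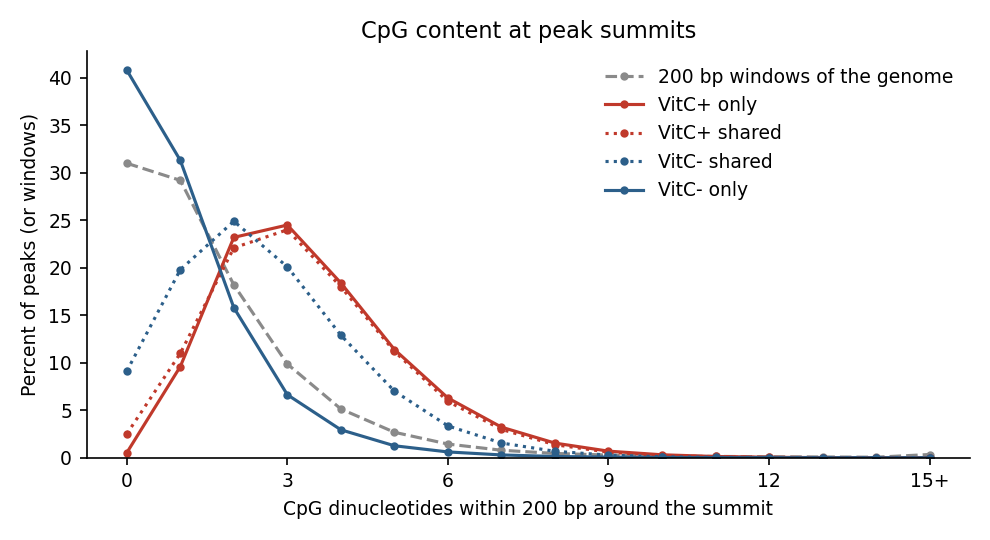
Percent of peaks (y axis) by the number of CpG within 200 bp around the summit (x axis, last point 15 or more), for shared and list-only peaks and for all such windows of the genome (grey). No CpG was found at 40.8% of VitC- only and 0.536% of VitC+ only summits, and in 31.0% of genome windows.

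Gene by gene, the 2 lists parted in both directions. For each of 49598 genes the covered length of the gene body in VitC+ was divided by that in VitC- after adding 1000 bp to each. Past a ratio of 2 were 6957 genes with more in VitC+ (14.0%) and 3563 with more in VitC- (7.18%); these shares are the background for the counts below, and over the 21774 protein-coding genes, which the gene lists consist of almost throughout, they were 24% and 9.36%. With CpG-dense peaks alone, 911 genes had more in VitC-. The median log2 ratio was 0.00 over all genes, since many are short and hold no peak, and 0.45 over protein-coding genes of at least 10 kb, of which 33.2% had more in VitC+ and 14.0% more in VitC-. Protein-coding gene bodies were covered to 11.8% of their summed length in VitC+ and 5.93% in VitC-, lncRNA genes to 9.55% and 6.67%, and pseudogenes to 3.09% and 4.03%.

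The direction went with expression in bone in each length class of at least 10 kb, while the share toward VitC- went up with gene length. The share toward VitC+ went up too, from 25% at 10 to 30 kb to 39.7% at 30 to 100 kb, and fell only at 300 kb or more. Part of the rise is built in, since with 1000 bp added a gene shorter than that cannot reach a ratio of 2. At 100 to 300 kb, 46.3% of 1870 protein-coding genes had more in VitC+ and 22.7% more in VitC-, and at 300 kb or more 25.1% and 52.6% of 557. Transcript levels of the cell line are not used here, so genes were ordered by their mean RPKM in the femurs of 3 VitC+ mice (Gulo knockout, on VitC), a whole tissue with other cell types. Of protein-coding genes of at least 10 kb, those listed at 0 RPKM were covered to 0.992% in VitC+ and 4.23% in VitC-. From the lowest to the highest quintile of RPKM above 0, coverage was 3.72, 12.6, 17.4, 19.1 and 22.2% in VitC+, and 5.06 to 6.65% throughout in VitC-. Length and expression can be seen together: of genes of 300 kb or more with at least 1 RPKM, 53.1% had more in VitC+ and 21.9% more in VitC- (n = 192), and of those below 1 RPKM 8.58% and 71.6% (n = 303). At 100 to 300 kb these shares were 64.9% and 7.49% with at least 1 RPKM, and 16.6% and 47.8% below it. At 10 to 100 kb they were 43.1% and 4%, and 11.4% and 23.6%.

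Gene lists of the osteoblast lineage and its matrix were covered above the level of all genes (11.2% in VitC+, 6.01% in VitC-), and more in VitC+ than in VitC-. This is the only check of the labelled cell type made here, and it rests on 5hmC and not on transcripts. The level of all genes is a low bar. From the third to the highest quintile of femur RPKM above 0, protein-coding genes were covered to 17.4, 18.9 and 21.6% in VitC+. In VitC- these classes stood at 6.41 to 6.61%. The list of bone matrix and mineral was covered to 17.5% and 9.61%, so in VitC+ it lies within the range of these expressed genes. In VitC+ the chondrocyte (22.2%) and Notch (27.2%) lists stood above it, and the adipocyte (15.6%) and endothelial (7.96%) lists below. These are shares of summed length, in which long genes weigh most, and the median covered share per gene gave another order. In VitC+ this median was 22.9% for bone matrix and mineral, 13.4% for adipocyte genes and lower for the Notch, endothelial and chondrocyte lists. The endothelial and chondrocyte medians lay under the 3.64% of all protein-coding genes. Osteoblast transcription factors were covered to 47.7% in VitC+ and 14.9% in VitC-, with 5 of 14 (35.7%) past the ratio toward VitC+ and none toward VitC-. The share toward VitC+ was 24% over all protein-coding genes. It was 11.1% over those of 2 to 10 kb and 33.2% over those of at least 10 kb. The median length of these factors is 7.82 kb. Runx2 was covered to 68.6% in VitC+ (104 peaks) and 24.0% in VitC- (106 peaks, 102 of them shared), so the number of peaks was alike and their median width was 1249 and 534 bp. Sp7 had 7 and 6 peaks over 49.0% and 30.3%. Prrx1, a homeobox factor of limb mesenchyme, stood at 63.2% and 31.4%, and Zeb1 at 31.1% and 7.21%. Dlx5, a homeobox factor of bone, stood at 43.8% and 17.4%, and Twist1 had no covered base in either list.

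Of 19 genes of bone matrix and mineral, 14 had more in VitC+ and 5 more in VitC-, and 5 (26.3%) and 0 were past the ratio, close to the 24% of protein-coding genes past it toward VitC+. Alpl, the phosphatase that frees phosphate for mineral, was covered to 52.0% and 24.7%, Ibsp (bone sialoprotein) to 41.6% and 15.6%, and Spp1 (osteopontin) to 34.7% in VitC+ with no peak in VitC-. Pth1r, the receptor of parathyroid hormone, stood at 61.1% and 7.08%. Bglap, the gene of osteocalcin, is under 1 kb long, and 530 and 18 of its bases were covered. Some members, chosen here after their values were seen, were nearly level: Dmp1 had 20.2% and 17.2%, Sost, an inhibitor of Wnt signalling, 5.57% and 5.73%, and Phex, a peptidase of phosphate control, 5.13% and 6.13%. Phospho1, a phosphatase of matrix vesicles, had 1 peak in VitC+ (5.01%) and none in VitC-. Within 30 kb of the TSS, 14 of the 15 osteoblast genes that the study names had more in VitC+. The log2 ratio was 1.61 at Runx2 and -0.16 at Sost, the exception. Protein-coding genes as a whole leaned the same way in this window. Their median log2 ratio was 0.35, and 0.55 for those of at least 10 kb. The share of all genes with more in VitC+ there was not computed, so whether the osteoblast genes stand above it was not tested.

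Fibrillar collagens and fibroblast matrix genes (43.5% in VitC+ and 11.2% in VitC-) came nearest to the osteoblast transcription factors, while all 44 collagen genes together stood at 17.1% and 7.92%, with 19 past the ratio toward VitC+ and 5 toward VitC-. Of 11 fibrillar collagens 8 were past the ratio toward VitC+ and none toward VitC-, and they were covered to 36.4% and 11.8%. Col3a1 had 46.1% and 3.67%, Col1a2 41.0% and 5.73%, and Col5a1 44.5% and 10.2%. Col1a1 was the exception in its body, with 6.37% and 7.77%, whereas the 30 kb on each side of its TSS held 22282 and 10331 covered bp. Genes of collagen maturation, which include VitC-dependent hydroxylases, cross-linking enzymes, proteases and non-enzymes, counted 13 of 20 toward VitC+ and 0 toward VitC-. Plod2, a lysyl hydroxylase, had 55.2% and 17.3%, P4ha1, a prolyl hydroxylase, 39.7% and 11.6%, and Lox, which cross-links collagen, 27.3% and 3.37%. Of 22 fibroblast matrix genes 17 were past the ratio toward VitC+. Among them Tnc (tenascin C) had 34.1% and 14.6%, Postn (periostin) 30.3% and 3.21%, and Bgn (biglycan, on chromosome X) 2.96% and 3.66%.

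Signalling lists followed, and so did the dioxygenases. BMP and TGF-beta genes counted 17 of 30 toward VitC+ and 1 toward VitC-, with receptors high (Acvr1 69.9% and 21.3%, Tgfbr2 63.3% and 19.9%) and some ligands low in both lists (Bmp2 2.36% and 5.70%, Bmp7 0.680% and 1.88%). The single gene toward VitC- was the receptor Bmpr1b, at 0.365% and 2.20%. Wnt genes counted 16 of 31 and 0, among them Tcf7l2, a Wnt effector (73.5% and 29.5%), and Ctnnb1, β-catenin (62.8% and 12.5%). Notch genes counted 6 of 16 and 1. Of 26 genes of VitC-dependent dioxygenases 14 were past the ratio toward VitC+ and none toward VitC-. The TET genes themselves stood at 19% and 9.30% (Tet1), 10.6% and 2.84% (Tet2) and 41.4% and 11.7% (Tet3). The median gene length was 71.4 kb for dioxygenases, 53.6 kb for BMP and TGF-beta and 36.9 kb for Wnt genes. Of all protein-coding genes of 30 to 100 kb, 39.7% were past the ratio toward VitC+. Of genes of 10 to 100 kb with at least 1 RPKM in femur, 43.1% were.

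Lists of other lineages fell on both sides of the level of all genes (11.2% in VitC+ and 6.01% in VitC-). Chondrocyte genes were covered to 22.2% and 8.25% and adipocyte genes to 15.6% and 8.04%, endothelial genes to 7.96% and 5.25%. Lists of neurons, muscle, liver and blood were covered to 0.705 to 3.68% in VitC+ and 3.74 to 7.36% in VitC-. All 25 neuronal synapse and adhesion genes had more in VitC-, 21 of them (84%) past the ratio, at 0.705% in VitC+ and 4.46% in VitC-. They are long, with a median of 903 kb, and of all genes of 300 kb or more below 1 RPKM in femur 71.6% were past the ratio toward VitC-. Lrp1b, a lipoprotein receptor gene of over 2 Mb, held 192 VitC- peaks and no VitC+ peak, and Ctnna2, a neuronal catenin, 118 and none. Skeletal muscle genes counted 1 of 21 toward VitC+ and 6 toward VitC-, hepatocyte genes 0 of 20 and 3, and blood and immune genes 2 of 24 and 7. Alb, the hepatocyte gene of albumin, had no covered base in either list, and Ptprc, the pan-leukocyte antigen CD45, had 0.963% and 6.44%. Chondrocyte genes were mixed: the factors Sox5 (24.8% and 10.1%), Sox6 (29.5% and 8.54%) and Sox9 (30.1% and none) were past the ratio toward VitC+, Col9a1 toward VitC- (none and 3.53%), and the median log2 ratio of the 15 was 0.00. Adipocyte genes counted 5 of 16 and 1, endothelial genes 4 of 15 and 1, cell cycle genes 3 of 21 and 1, and imprinted genes 8 of 18 and 2.

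**Figure D5:**
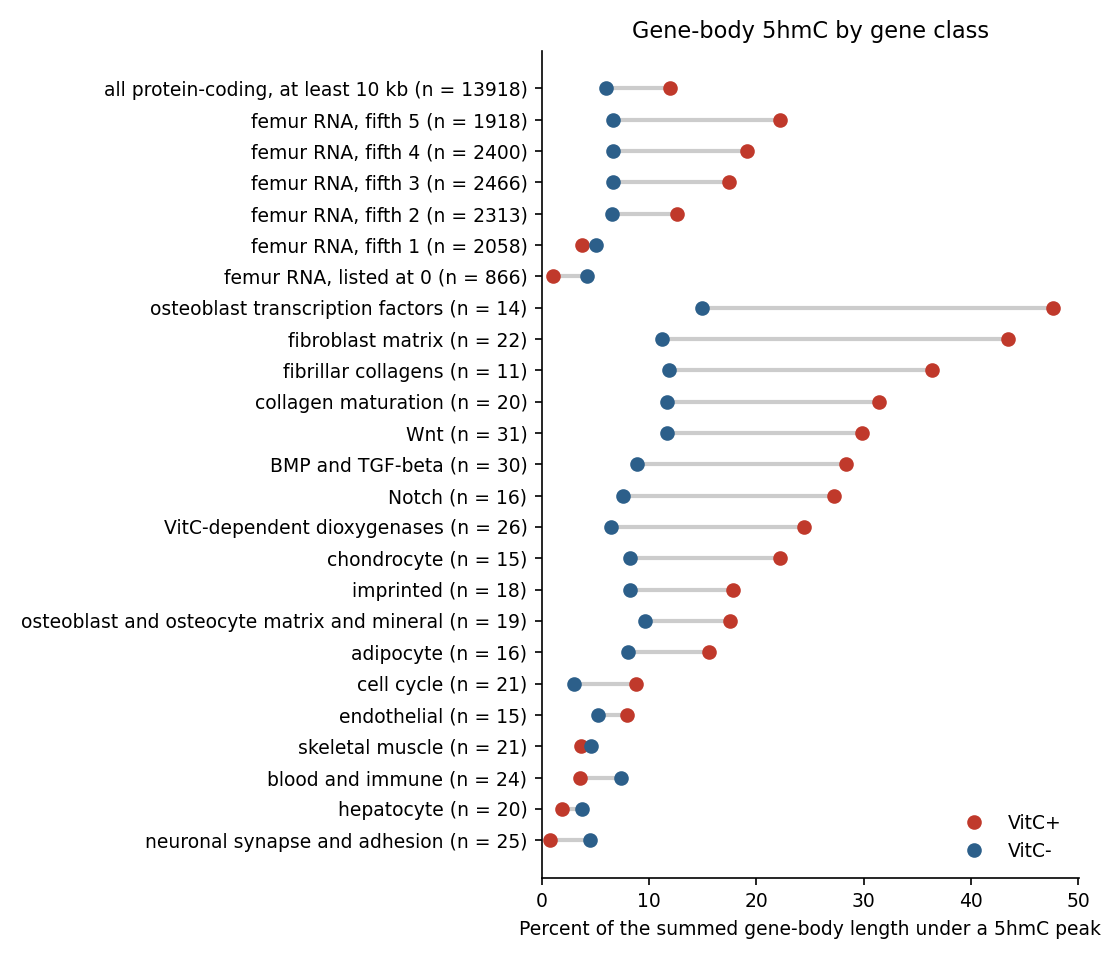
Percent of the summed gene-body length under a peak (x axis) in VitC+ (red) and VitC- (blue), for all protein-coding genes of at least 10 kb, for classes of their femur RNA level and for each gene list, with the number of genes in brackets. Osteoblast transcription factors stand at 47.7 and 14.9%, neuronal genes at 0.705 and 4.46%.

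Large gene families ranged from almost no VitC+ coverage to above the level of all genes. Olfactory receptors, 1105 short genes expressed in the nose, were covered to 0.559% in VitC+ and 5.01% in VitC-, and 350 vomeronasal receptors to 0.0230% and 3.45%. Cytosolic ribosomal protein genes, which every cell uses, stood at 18% and 1.00%, and 17 of 83 were past the ratio toward VitC+ and none toward VitC-. Hox genes stood at 19.1% and 6.93%, solute carriers at 10.6% and 6.30%, Zfp zinc finger genes at 11.1% and 5.51%, keratins at 11.1% and 5.02%, clustered protocadherins at 9.12% and 4.11% and histone genes at 10.6% and 3.94%. Most of these lie near the level of all genes. Of 55 protocadherins, neuronal adhesion genes, 20 were past the ratio toward VitC+ and none toward VitC-, but their median log2 ratio of 0.37 was -0.28 within 30 kb of the TSS.

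The 10 protein-coding genes of at least 10 kb with the largest excess of covered share in VitC+ had 63.6 to 89.7% in VitC+ and 2.79 to 18.2% in VitC-. They are matrix genes (Fn1, 89.7% and 7.19%; Thbs1, thrombospondin, 80.6% and 6.08%), receptors and ligands at the cell surface (Efna5, 82.1% and 16.6%; Fgfr2, a receptor of fibroblast growth factors, 81.3% and 18.2%; Adgrl2, a latrophilin), the transcription factors Cebpg and Adnp, and Itm2b, Rnf139 and Slc38a2, an amino acid transporter. Over Fn1, 12 VitC+ peaks had a median width of 3751 bp and 9 VitC- peaks of 377 bp. Of the 10 with the largest excess in VitC-, 5 held no VitC+ peak. Those named here had 24.4 to 33.3% in VitC- and 0 to 4.77% in VitC+. They are Klk13, a kallikrein (4.77% and 33.3%), Kel, an erythroid blood group gene (1.58% and 26.3%), Cyp2b10, a hepatic cytochrome P450 (no covered base and 24.4%), Akap4, a scaffold of the sperm tail, Zfp872, E330021D16Rik, and the genes Fsip2l, Gm44 and 1700013H16Rik on chromosome X, where Akap4 lies too.

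VitC+ peaks covered more than VitC- peaks on all 19 autosomes, by ratios of 1.18 to 1.62, and less on X (1.29% and 2.18%) and Y (0.0550% and 0.744%). Chromosome Y held 116 VitC+ and 1786 VitC- peaks, and 12.1% of VitC- peaks on X were shared, against 28.4 to 41.5% on an autosome; for VitC+ peaks these shares were 24.5% and 29.4 to 43.4%.

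VitC- only peaks overlapped H3K27me3 peaks more often than the other sets did, and the other lists gave no single order. Femur values refer to peaks on chromosomes 1 to 19, since the femur lists hold no others. In the femur of Gulo knockout mice, 5hmC peaks of the group on VitC overlapped 39.0% of VitC+ only and 40.6% of VitC- only peaks. Those of the group that had VitC withdrawn (VitC+-) overlapped 32.0% and 45.9%. Of shared peaks, which are wider, either femur list overlapped 47.9 to 60.2%. By bases, the VitC+- list covered 19.5% of VitC+ only and 35% of VitC- only bases, against 25.3% and 29.5% of shared VitC+ and VitC- bases. For the group on VitC these shares were 26.1%, 30.9%, 32.5% and 35.1%. Peaks of the repressive mark H3K27me3 in VitC- MC3T3-E1 cells overlapped 13.6% of VitC- only and 5.91 to 6.95% of the other 3 sets, and those of H3K9me3 3.74% and 3.42 to 4.45%. In VitC+ cells H3K27me3 peaks overlapped 9.51% and 4.23 to 4.76%, and H3K9me3 peaks 2.73% and 1.35 to 1.76%. The femur lists cover 7.12% and 7.11% of the genome, the H3K27me3 lists 8.56% (VitC-) and 5.31% (VitC+) and the H3K9me3 lists 2.45% and 1.60%. They have no replicate error either, and the methods give 7 days of culture for the histone marks where the labels give 28.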

How the data were processed

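DNA of MC3T3-E1 cells was immunoprecipitated for 5hmC and sequenced. According to the labels and methods, the authors checked reads with FastQC 0.72, trimmed them with Trim Galore 0.4.3.1, mapped them to mm10 with BWA 0.7.15.1 and called peaks with MACS2 (2.1.1.20160309.6 in the labels, another version in the methods) on pooled samples with an FDR of 0.05. The deposited values used are the pileup signal at the summit, the fold enrichment ratio over the background, and -log10 q-values. The lowest -log10 q is 1.30. The labels name an input sample of these cells, and whether it served as control is not given in the sources used here. The background implied by pileup and fold lies within 1% of its lowest value (3.35 and 3.25 fragments) for 64.6% of VitC+ and 61.0% of VitC- peaks, so for most peaks fold is pileup on another scale. Numbers of reads were not used here, so depth is unknown. Fold enrichment of the femur 5hmC and MC3T3-E1 histone lists, deposited by the authors, was read but only positions were compared. Femur RPKM values were made by the authors after mapping with STAR.

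Peaks were placed on RefSeq genes of GRCm38.p6, the same assembly as mm10, and no peak passed a chromosome end. Peaks within a list do not overlap. CpG and soft-masked repeats were read from the RefSeq genome. Genes were matched by symbol, and 18208 protein-coding genes had a femur RPKM. Shares have Wilson 95% intervals that cover counting error only. The 5 peak steps were tested on simulated intervals, where each gave the direct count. Named genes are the 15 osteoblast genes that the study names, the 10 protein-coding genes of at least 10 kb with the largest excess in covered share in each direction, members of the gene lists, and genes at the 5 widest and 5 highest peaks of each list. Some genes and sequences that this rule names are not reported here. The peaks and gene lists were chosen with earlier results of these data known. Sequence was read with pysam 0.24.0, tables were joined with pandas 2.3.3 and numpy 2.4.6 in Python 3.11.15, intervals came from scipy 1.17.1 and plots from matplotlib 3.10.9.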

Additional observations from a re-analysis of the deposited data

How the results depend on the processing

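Each group has 1 pooled list, so library-to-library error, a library that stands apart and depth cannot be judged, and differences in depth and in pull-down cannot be told apart from those in 5hmC. No paired analysis was possible because each group has 1 pooled list. Limits of -log10 q or fold of 5, the 100000 peaks with the highest -log10 q and merging of peaks within 500 bp kept the direction of covered length, width, genic share and gene counts. Protein-coding genes alone and overlap in place of midpoints kept that of genic share, a TSS window of 1 kb that of promoter share, and other measures per gene that of the median log2 ratio of long genes. The number of peaks, lower in VitC+ (ratio to VitC- 0.893), was higher with a fold of at least 5 (1.09) and with CpG-dense peaks (1.97), a limit that by construction removes more VitC- peaks. With CpG-dense peaks the ratio of covered lengths was 2.80, genes with more in VitC- numbered 911, and 27.4% of VitC+ and 56.5% of VitC- peaks were shared. The shared percentages were 32.7 and 32.1 with a -log10 q of at least 5, and 13.5 and 12.1 with a reciprocal overlap of 50%. On autosomes alone 34.5% of VitC- peaks were shared. With 100000 peaks of each list the median log2 ratio of protein-coding genes of at least 10 kb was 0.00 instead of 0.45. The cause of the other shifts was not tested. The number of peaks could not be computed for lists of equal size. Peaks with a background of 10 fragments or more changed none of these directions when left out. CpG density, autosomes and background were chosen after seeing the data. Of the gene lists, clustered protocadherins turned from a median log2 ratio of 0.37 to -0.28 within 30 kb of the TSS.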
